A study of Mus musculus with 2 samples.

Results

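A set of 9 genes tied to the ciliary margin of the eye, *Gja1*, *Rbms1*, *Otx1*, *Msx1*, *Col9a1*, *Wfdc1*, *Zic1*, *Zic2* and *Zic5*, was followed in single cells of mouse eyecups at E13.5. They were found by their symbols in the deposited feature lists, and all 9 were among the 31053 genes listed. The study compared 1 control embryo (Six3+/-;Six6+/-) with 1 double knockout littermate (Six3F/F;Six6-/-;a-Cre, hereafter DKO). The control thus carried 1 inactive copy of each gene. In the DKO, *Six6* was inactive in every cell, whereas recombination by the a-Cre transgene reaches peripheral retina alone, so *Six3* was removed from only a part of the cells. Eyecups held retina, lens and blood, and 10x 3′ libraries (version 3) were made from the dissociated cells.

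The ciliary margin is the rim of the optic cup, between the neural retina and the pigmented epithelium. It later forms the epithelia of the ciliary body and the iris, and its fate depends on Wnt and BMP signals from the neighbouring tissues. *Otx1*, *Msx1* and the 3 Zic genes encode transcription factors, *Gja1* encodes the gap junction protein connexin 43, *Col9a1* encodes a chain of the matrix protein collagen IX, *Wfdc1* encodes a secreted protein with a whey acidic protein domain, and *Rbms1* encodes an RNA-binding protein. The Six3 and Six6 proteins are homeodomain transcription factors of the retina.

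The genes lie on 8 chromosomes (mm10, gene bounds from GENCODE vM21). *Otx1* spans chr11:21994764-22002897 on the minus strand, *Msx1* chr5:37820485-37824583 (minus), *Gja1* chr10:56377330-56402513 (plus), *Col9a1* chr1:24177610-24252684 (plus), *Wfdc1* chr8:119666365-119688222 (plus) and *Rbms1* chr2:60750193-60963192 (minus). *Zic5* (chr14:122456795-122465677, minus) and *Zic2* (chr14:122475435-122479852, plus) point away from each other with 9757 bases between them. *Zic1* (chr9:91358058-91365810, minus) overlaps the start of *Zic4* on the other strand. The 3′ library kit keeps the strand, and whether the counting used it is not given in the sources used here.

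RefSeq promoter windows on GRCm38.p6, from 250 bases before to 50 bases after a start, were listed for 6 of the 9 genes, with 8 windows in all. The windows of 3 genes are shown because *Gja1* had the largest ratio in margin-like cells, *Zic5* the largest in pigmented-like cells, and *Col9a1* the lowest in naive-like cells. Capitals mark matches, on either strand, to TGATAC (a core bound by Six3 and related homeodomain proteins) or CTTTGA (a core bound by TCF/LEF proteins), which do not overlap here.
Gja1, chr10:56377050-56377349, plus strand: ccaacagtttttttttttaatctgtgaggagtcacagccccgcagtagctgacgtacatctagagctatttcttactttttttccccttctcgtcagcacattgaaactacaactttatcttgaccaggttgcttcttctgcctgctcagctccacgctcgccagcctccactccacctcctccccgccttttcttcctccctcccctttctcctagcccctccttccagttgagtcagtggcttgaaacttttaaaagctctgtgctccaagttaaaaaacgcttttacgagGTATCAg
Col9a1, chr1:24177360-24177659, plus strand: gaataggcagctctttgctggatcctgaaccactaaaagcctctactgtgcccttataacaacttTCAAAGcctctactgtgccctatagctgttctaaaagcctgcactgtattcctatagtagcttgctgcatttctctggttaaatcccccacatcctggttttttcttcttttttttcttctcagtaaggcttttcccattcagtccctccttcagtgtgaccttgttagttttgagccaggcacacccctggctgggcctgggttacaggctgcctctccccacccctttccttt
Zic5, chr14:122465609-122465908, minus strand: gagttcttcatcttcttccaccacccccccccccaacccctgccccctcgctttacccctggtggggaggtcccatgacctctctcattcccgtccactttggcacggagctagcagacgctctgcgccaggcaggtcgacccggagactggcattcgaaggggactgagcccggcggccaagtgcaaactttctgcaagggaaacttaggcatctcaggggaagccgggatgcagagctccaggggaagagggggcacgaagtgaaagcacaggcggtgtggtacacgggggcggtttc
TGATAC occurred in 1 of the 8 windows, 43 bases after the start of *Gja1*, and in 5.46% of all 32851 promoter windows. CTTTGA occurred in 1 of the 8 windows, 185 bases before the first start of *Col9a1*, and in 16.0% of all windows. The *Zic5* window held neither.

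The control library held 10315 cells and 85589515 UMIs and the DKO library 12672 cells and 85173276 UMIs, with medians of 7486 and 5787 UMIs per cell. The libraries shared 22 cell barcodes. After filtering, 9822 control and 12146 DKO cells were grouped into 32 clusters, and the 9 genes, *Six3* and *Six6* were left out of the genes used for clustering. Clusters were named from other marker genes. The comparison rests on 3 classes: naive-like progenitors (2557 control and 1647 DKO cells), margin-like cells (1155 and 956) and pigmented-like cells (65 and 389). *Six6* fell from 390 to 54.7 UMIs per 1000000 UMIs (CPM) in naive-like and from 306 to 43.5 CPM in margin-like cells. *Six3* was at 328 and 351 CPM in naive-like cells, 262 and 215 CPM in margin-like cells, and 130 and 66.7 CPM in pigmented-like cells. The floxed part of *Six3* is its first exon and the 3′ tags can lie outside it, so these levels are not a direct check of the deletion.

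Levels are the summed UMIs of a class per 1000000 UMIs of that class, and 95% intervals are given in parentheses. With 1 library per genotype there was no replicate and no test, and the intervals cover counting error only, not the spread between embryos. A gene was called higher or lower in the DKO only where it differed by at least 2-fold. Elsewhere, higher and lower give the direction of a difference alone. In a class, fewer cells of a kind and less RNA per cell cannot be told apart.

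In control eyecups 6 of the 9 genes were lower in naive-like than in both margin-like and pigmented-like cells, but the highest class differed from gene to gene. *Gja1*, *Rbms1*, *Col9a1* and *Otx1* were highest in pigmented-like cells. *Gja1* measured 12.7 CPM in naive-like, 154 CPM in margin-like and 797 CPM in pigmented-like control cells. *Wfdc1* and *Zic1* peaked in margin-like cells, *Wfdc1* at 134 CPM against 35.0 CPM in naive-like and 31.4 CPM in pigmented-like cells. *Zic2* and *Zic5* were spread over the retina and were lowest of the 3 classes in pigmented-like control cells, at 36.6 and 48.4 CPM.

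**Figure D1:**
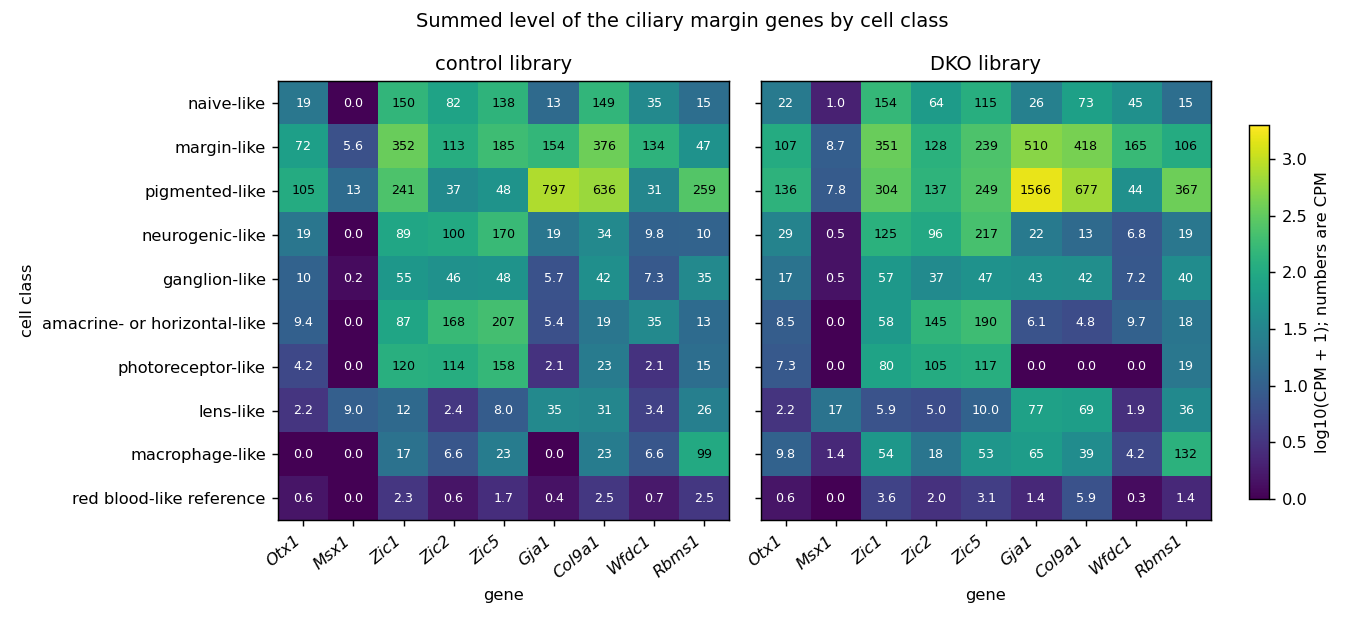
Level of each gene (columns) in each cell class (rows), in CPM, for the control and the DKO library; colour is log10(CPM + 1). *Gja1* reaches 797 CPM in control and 1566 CPM in DKO pigmented-like cells, and all genes are at or below 5.88 CPM in the red blood-like reference cells.

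The order of neighbouring levels was not always resolved. In the control, *Otx1* in naive-like (19.1 CPM) and neurogenic-like cells (18.5 CPM) had overlapping intervals. *Zic5* was at 207 CPM in amacrine- or horizontal-like, 185 CPM in margin-like, 170 CPM in neurogenic-like and 158 CPM in photoreceptor-like cells, and each neighbour in this order overlapped the next. *Msx1* was sparse everywhere, with 13.1 CPM in pigmented-like (10 UMIs), 8.99 CPM in lens-like and 5.60 CPM in margin-like control cells, and these 3 overlapped as well. *Rbms1* was also at 99.5 CPM in macrophage-like cells, so it was not limited to the eye's epithelia.

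Red blood-like cells, which should lack these transcripts, gave the level of free RNA. In the 3 red blood-like clusters with over 50% hemoglobin UMIs, no member was above 2.45 CPM in the control or 5.88 CPM in the DKO library.

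In margin-like cells most of the genes had log2 ratios above 0, led by *Gja1*. *Gja1* rose from 154 CPM (148 to 161) to 510 CPM (496 to 524), a log2 ratio of 1.73 (1.65 to 1.80). *Rbms1* rose from 47.4 CPM (43.8 to 51.3) to 106 CPM, a log2 ratio of 1.17 (1.02 to 1.31). *Otx1* measured 72.4 CPM in control and 107 CPM in the DKO, with a log2 ratio of 0.57 (0.44 to 0.69). *Gja1* and *Rbms1* were the 2 genes past 2-fold in this class. For *Rbms1* the log2 ratio was 0.40 when the libraries were merged without integration, 0.81 in the cluster led by *Aldh1a3* alone and 0.99 in Six3-low DKO cells (defined further on) alone, all under 2-fold.

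The other genes were within 2-fold in margin-like cells. *Msx1* had 74 and 85 UMIs, with a log2 ratio of 0.63 (0.16 to 1.10). *Zic5* (0.37), *Wfdc1* (0.30), *Zic2* (0.18) and *Col9a1* (0.15) had log2 ratios above 0 with intervals above 0. *Zic1* was at 352 CPM in control and 351 CPM in DKO cells. Of the 9 genes, 2 were at least 2-fold higher and 0 at least 2-fold lower, with a median log2 ratio of 0.37 against 0.03 over all 10101 genes tested. Over those genes, 1.67% were at least 2-fold higher and 0.396% at least 2-fold lower. The study had already reported *Gja1* and *Rbms1* as raised in DKO cells of these same libraries. Counting them past 2-fold, in this or another class, is thus no independent support.

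Markers listed for other classes also differed between the margin-like cells of the 2 libraries. The summed level of 9 pigment markers was 38.3 CPM in control and 232 CPM in DKO cells, most of it from *Trpm1* (30.9 and 166 CPM) and *Dct* (2.57 and 52.3 CPM), while *Slc45a2* had 0 UMIs in both libraries and *Tyr* 0 and 4 UMIs. The study used *Trpm1* and *Dct* as ciliary margin markers too, so they do not set pigmented cells apart from margin cells here. The summed level of 8 naive progenitor markers was 3448 and 2169 CPM, and that of 7 ganglion markers 104 and 209 CPM. Their part in the *Gja1* and *Rbms1* levels was not tested.

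The margin-like class joined 2 clusters, and *Col9a1* differed between them. In the cluster led by *Aldh1a3* it was at 392 CPM in control and 585 CPM in DKO cells, and in the cluster led by *Crhbp* at 361 and 316 CPM. *Wfdc1* was at 128 and 203 CPM in the first and at 139 and 142 CPM in the second. *Gja1* was higher in the DKO in both, at 170 and 484 CPM and at 140 and 526 CPM.

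**Figure D2:**
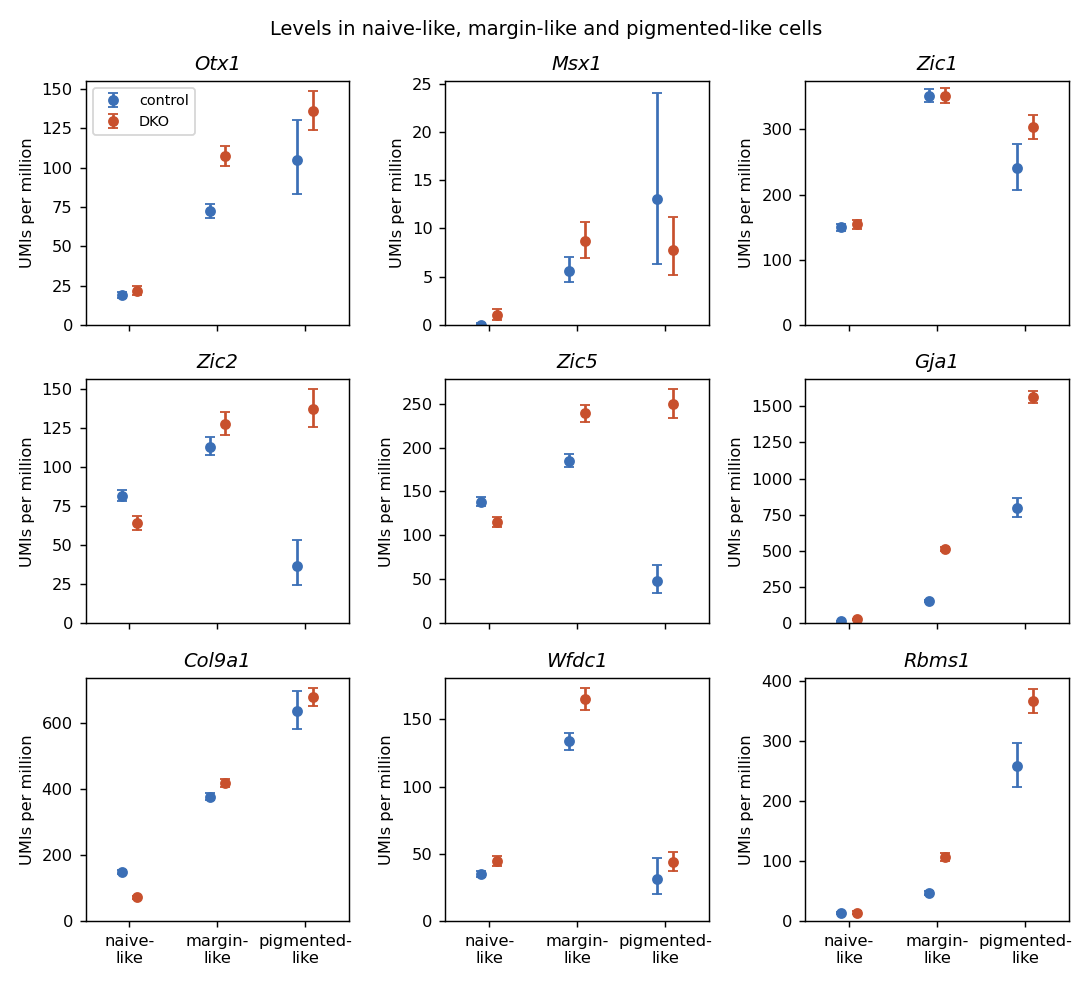
Level of each gene in naive-like, margin-like and pigmented-like cells, in CPM (linear axis from 0), for control (blue) and DKO (red); bars are 95% counting intervals. *Gja1* and *Rbms1* are higher in DKO margin-like cells, *Zic2* and *Zic5* in DKO pigmented-like cells, and *Col9a1* is lower in DKO naive-like cells.

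In pigmented-like cells *Zic5* and *Zic2* stood out. *Zic5* was at 48.4 CPM (34.1 to 66.7) in control and 249 CPM (233 to 266) in the DKO, giving a log2 ratio of 2.36 (1.89 to 2.88). *Zic2* was at 36.6 CPM (24.3 to 52.9) and 137 CPM (125 to 150), a log2 ratio of 1.90. At clustering resolution 0.5 no margin-like class was found and this class held 887 control and 1152 DKO cells. There the log2 ratios were 0.55 for *Zic5* and 0.24 for *Zic2*, while in cells chosen by pigment gene UMIs alone they were 2.83 and 2.38. *Gja1* was at 797 and 1566 CPM, a log2 ratio of 0.97 (0.85 to 1.10), just under 2-fold. *Rbms1* (0.50), *Otx1* (0.38) and *Zic1* (0.33) had smaller log2 ratios with intervals above 0.

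*Col9a1* in pigmented-like cells was at 636 and 677 CPM, *Wfdc1* rested on 24 and 159 UMIs, and *Msx1* on 10 and 28 UMIs, and the intervals of all 3 ratios held 0. Of the 8 genes with at least 100 UMIs, 2 were at least 2-fold higher and 0 at least 2-fold lower, while 3.44% of all 6042 genes tested were higher and 3.05% lower. The median log2 ratio of the 9 genes was 0.49 against 0.03 over all genes.

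The pigmented-like cells of the 2 libraries also differed in their own markers. The summed level of 9 pigment markers was 6211 CPM in control and 3336 CPM in DKO cells, and that of 8 naive progenitor markers 806 and 1163 CPM. These 8 markers did not move together, with *Rax* at 75.9 and 453 CPM and *Sfrp2* at 144 and 93.3 CPM. *Pmel*, a melanosome matrix gene, was at 2649 and 921 CPM, and *Tyr*, which encodes tyrosinase, at 152 and 37.4 CPM. The part of this difference in the *Zic2* and *Zic5* levels was not tested. The related gene *Zic4* was at 19.6 and 26.6 CPM with a log2 ratio of 0.44 (-0.36 to 1.33).

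**Figure D3:**
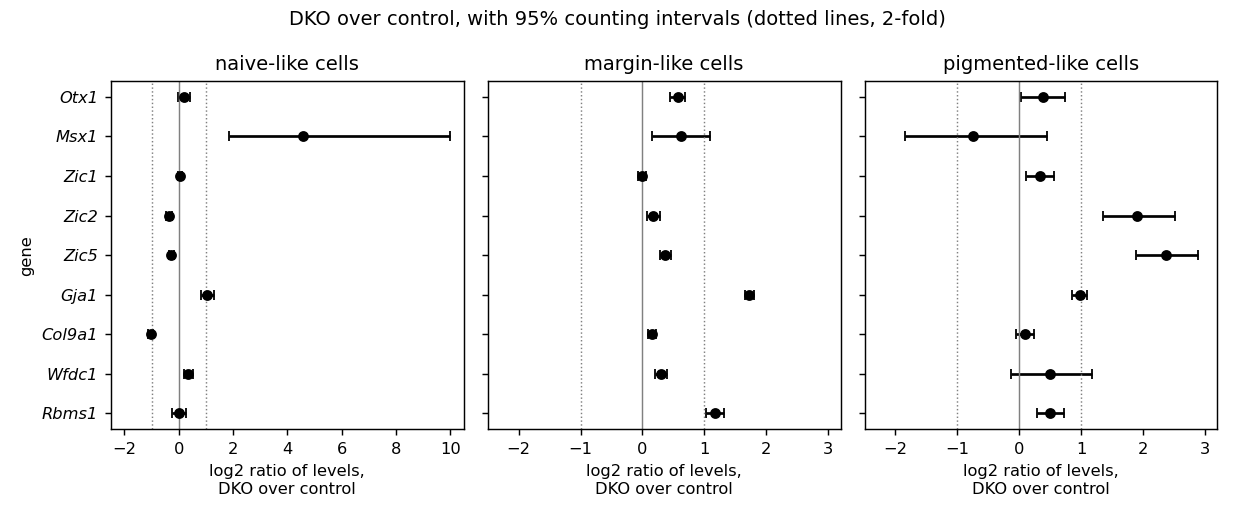
Log2 ratio of each gene's level, DKO over control, in the 3 classes, with 95% counting intervals; dotted lines mark 2-fold, and the naive-like panel has a wider axis. *Gja1* lies right of 0 in every panel, while *Col9a1* lies at -1.03 in naive-like cells and near 0 in the other panels.

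In naive-like cells the genes differed in both directions. *Gja1* was at 12.7 CPM (11.3 to 14.2) in control and 26.5 CPM (23.8 to 29.4) in the DKO, giving a log2 ratio of 1.06 (0.83 to 1.28). *Col9a1* was lower in the DKO, at 149 CPM (145 to 154) against 73.0 CPM (68.5 to 77.8), a log2 ratio of -1.03 (-1.14 to -0.93). At clustering resolution 0.5, where this class held 2756 control and 1948 DKO cells, it was -0.14. *Zic2* and *Zic5* had log2 ratios of -0.35 and -0.27 and *Wfdc1* one of 0.36, all under 2-fold.

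*Otx1*, *Zic1* and *Rbms1* had intervals that held 0 in naive-like cells. *Msx1* had 1 UMI in control and 13 UMIs in DKO naive-like cells, a log2 ratio of 4.58 (1.84 to 9.99). Of the 8 genes with at least 100 UMIs, 1 was at least 2-fold higher and 1 at least 2-fold lower, beside 1.16% and 0.77% of all 10777 genes tested. The median log2 ratio of the 9 genes was 0.05 against 0.02 over all genes. Markers differed between the naive-like cells of the libraries as well. The 8 naive progenitor markers summed to 5432 CPM in control and 5506 CPM in DKO cells, with *Sfrp2* at 2208 and 1267 CPM and *Ccnd1* at 1425 and 2345 CPM. The 7 lens markers summed to 224 and 58.0 CPM. The part of these differences in the *Gja1* and *Col9a1* levels was not tested.

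*Col9a1* was lower in neurogenic-like cells too, at 34.3 CPM in the control and 13.0 CPM in the DKO, with a log2 ratio of -1.40 (-1.72 to -1.08). Its partner chain *Col9a2* was at 41.9 and 21.5 CPM in naive-like cells, and at 58.7 and 52.5 CPM in margin-like cells. In ganglion-like cells *Gja1* was at 5.70 and 43.4 CPM, while *Col9a1* was at 42.4 and 42.2 CPM. The ganglion-like class held 12.5% called doublets in the control and 15.3% in the DKO, most of them in 1 of its 4 clusters, where they made up 91.7% and 90.5% of cells, and their part in the *Gja1* level was not tested.

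The share of cells with a UMI was compared after thinning each cell to 2000 UMIs, since DKO cells were shallower. In margin-like cells *Gja1* was detected in 20.5% of control (18.2% to 23.0%) and 48.2% of DKO cells (45.0% to 51.4%). Without thinning the shares were 49.9% and 74.5%. Thinning left out 4 control and 14 DKO margin-like cells, and the medians of this class were 9675 and 8531.5 UMIs. In red blood-like reference cells *Gja1* was found in 0 of 1063 control cells, which allows a share of up to 0.282%, and in 0.187% of DKO cells, at class medians of 8455 and 6316 UMIs.

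In pigmented-like cells *Zic5* had a UMI in 6.25% of control (1.73% to 15.2%) and 40.1% of DKO cells (35.1% to 45.2%) after thinning. Without it the shares were 30.8% and 75.6%. This class lost 1 control and 7 DKO cells to thinning and had medians of 10033 and 7277 UMIs. In naive-like cells the *Col9a1* shares were 22.1% in the control and 10.7% in the DKO, or 58.2% and 32.7% without thinning. In the red blood-like reference *Zic5* was detected in 0.188% and 1.31% and *Col9a1* in 0.564% and 0.935% of cells after thinning.

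**Figure D4:**
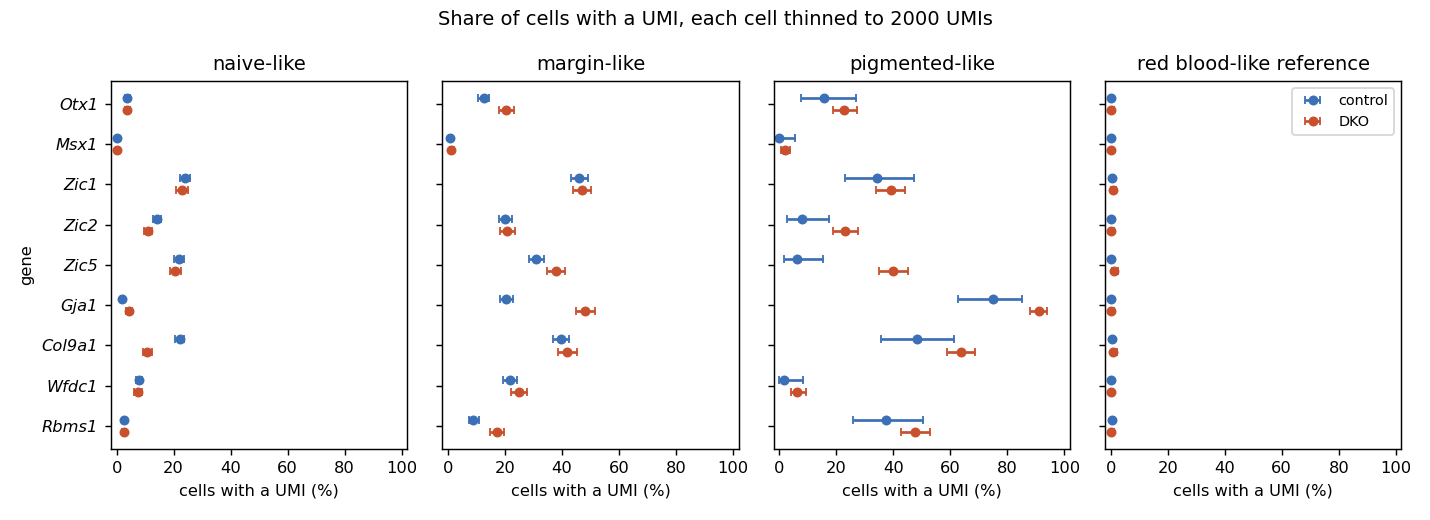
Percent of cells with at least 1 UMI of each gene after thinning to 2000 UMIs, for control (blue) and DKO (red), with exact 95% binomial intervals. *Gja1* reaches 91.1% of DKO pigmented-like cells and 0.187% of DKO red blood-like reference cells.

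Several members were often detected in the same cell. After thinning, 14.5% of control and 27.4% of DKO margin-like cells had UMIs of 4 or more of the 9 genes, against 1.22% and 1.23% of naive-like cells. In pigmented-like cells the shares were 15.6% and 45.5%. Within a class, most pairs of members were not resolved. The detection of one gene in cells with and without another had overlapping intervals in 51 of 64 ordered pairs in control and 55 of 64 in DKO margin-like cells, in 59 of 64 in the naive-like cells of each library, and in 52 of 56 in DKO pigmented-like cells. The remaining pairs were all higher in cells with the other gene. Among these, in control margin-like cells *Wfdc1* was detected in 32.2% of cells with a *Gja1* UMI and 19.0% of cells without one. In DKO margin-like cells *Col9a1* was detected in 54.0% of cells with and 30.7% of cells without *Gja1*.

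The DKO cells were also clustered alone, and any subcluster whose *Six3* level lay below 50% of that in control naive-like cells was called Six3-low as a whole. They held 30.5% of naive-like, 13.3% of margin-like and 100% of pigmented-like DKO cells. Control pigmented-like cells were under that level too, with 130 CPM of *Six3*, so this limit does not set DKO pigmented-like cells apart from control ones. In naive-like cells *Six3* was at 156 CPM in Six3-low, 465 CPM in other DKO and 328 CPM in control cells. In margin-like cells the levels were 113, 227 and 262 CPM, in the same order, so other DKO margin-like cells lay below the control. The limit marks a low *Six3* level, and the deletion itself was not read in single cells. DKO cells outside the Six3-low subclusters are therefore not shown to have kept *Six3*.

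In naive-like cells *Gja1* was highest in Six3-low cells, at 44.3 CPM against 16.0 CPM in the other DKO cells and 12.7 CPM in the control. *Zic1* was at 204 CPM in Six3-low and 126 CPM in other DKO cells, on either side of the control at 150 CPM. *Zic2* and *Zic5* were close to the control in Six3-low cells (84.1 and 144 CPM) and lower in the other DKO cells (52.0 and 97.9 CPM). *Col9a1* was low in both, at 64.4 and 78.0 CPM against 149 CPM in the control.

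In margin-like cells *Gja1* was at 521 CPM in Six3-low (127 cells) and 509 CPM in other DKO cells. *Wfdc1* differed most between them, at 80.0 CPM in Six3-low cells and 175 CPM in other DKO cells, with the control at 134 CPM between them. *Rbms1* was at 94.0 and 108 CPM, both above the control at 47.4 CPM.

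**Figure D5:**
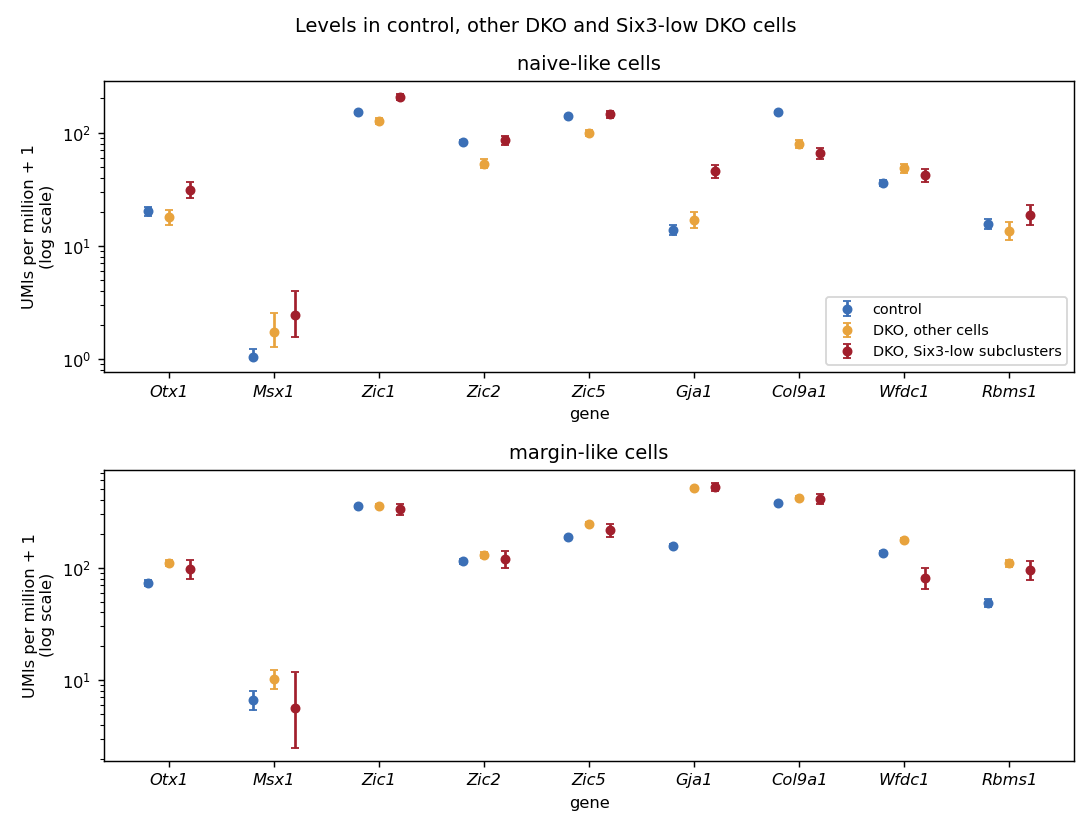
Level of each gene, in CPM + 1 on a log axis, in control cells, Six3-low DKO cells and other DKO cells of the naive-like and margin-like classes, with 95% counting intervals. *Gja1* is highest in Six3-low naive-like cells (44.3 CPM), while in margin-like cells both DKO groups are near 500 CPM and *Wfdc1* is lowest in Six3-low cells (80.0 CPM).

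An unnamed cluster, led by the contractile gene *Tagln* and the growth factor gene *Hbegf*, held 506 control and 526 DKO cells. In it *Gja1* was at 25.3 CPM in control and 593 CPM in DKO cells, *Rbms1* at 31.5 and 131 CPM and *Otx1* at 28.4 and 54.5 CPM. *Col9a1* (144 and 163 CPM) and *Wfdc1* (61.2 and 60.4 CPM) differed little. Six3-low cells made up 80.6% of the DKO cells of this cluster. In them *Gja1* was at 688 CPM, against 101 CPM (63 UMIs) in the other DKO cells of the cluster. The summed level of 9 margin markers in this cluster was 600 CPM in control and 1211 CPM in DKO cells. They did not move together, with *Wls* at 0.256 (1 UMI) and 284 CPM, *Cdon* at 125 and 125 CPM and *Bmp4* at 13.1 and 8.26 CPM. The 9 pigment markers summed to 16.4 and 293 CPM, with 2 of them at 0 UMIs in each library. Most of their DKO sum came from *Trpm1* (202 CPM) and *Dct* (64.5 CPM). The 8 naive progenitor markers summed to 3582 and 1669 CPM, the 7 lens markers to 140 and 324 CPM and the 7 ganglion markers to 90.9 and 278 CPM. The part of these differences in the *Gja1* level was not tested. A further 2 clusters led by *Fabp7* held 9 control and 989 DKO cells, and their DKO cells had *Zic1* at 278 CPM, *Zic2* at 103 CPM, *Zic5* at 191 CPM, *Gja1* at 46.0 CPM and *Col9a1* at 23.4 CPM.

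Other genes known from the margin differed unevenly as well. Of 14 such genes 13 were listed and 11 had at least 100 UMIs in margin-like cells, of which 4 were at least 2-fold higher and 0 lower, beside 1.67% and 0.396% of all genes tested. *Wls*, needed for Wnt secretion, was at 4.62 and 157 CPM, *Bmp7*, a BMP ligand, at 10.1 and 30.4 CPM, *Fabp3*, a fatty acid binding protein gene, at 24.0 and 62.3 CPM, and *Fzd1*, a Wnt receptor gene, at 31.5 and 63.6 CPM. All 4 belong to the 9 markers that named the margin-like cells (with *Bmp4*, *Ccnd2*, *Cdon*, *Ezr* and *Rdh10*), so their levels are no independent support. In pigmented-like cells 10 of these genes could be tested, and 4 were at least 2-fold higher and 1 lower, beside 3.44% and 3.05% of all genes. The log2 ratios were 1.48 for *Fzd1*, 1.36 for *Ezr*, 1.33 for *Wls* and 1.28 for *Rdh10*. In contrast, *Ccnd2*, a D-type cyclin gene, was at 476 CPM in control and 131 CPM in DKO cells. *Fzd1*, *Ezr* and *Wls* had already been reported by the study as raised in DKO cells of these libraries.

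Of 12 Wnt and BMP response genes, 11 could be tested in margin-like cells, and 2 were at least 2-fold higher and 0 lower, beside the same 1.67% and 0.396% of all genes. Both are Wnt targets: *Axin2* was at 5.37 and 21.0 CPM and *Lef1* at 15.2 and 33.6 CPM. The BMP targets *Id1* and *Id3* were at 496 and 354 CPM and at 883 and 700 CPM, while *Smad7*, also in the list, was at 38.9 and 53.1 CPM. In naive-like cells 2 of the 10 genes tested were at least 2-fold higher and 0 lower, beside 1.16% and 0.77% of all genes. These 2 were *Axin2*, at 1.56 and 13.6 CPM, and *Lef1*, at 2.22 and 9.60 CPM. *Id2* was at 363 and 224 CPM and *Id3* at 993 and 688 CPM, and the median log2 ratio of the 10 genes was -0.20. In pigmented-like cells 0 of the 9 genes tested was past 2-fold in either direction, where 3.44% of all genes were higher and 3.05% lower.

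Across 58 groups (a cluster in 1 library, with at least 50 cells), the pattern of each gene was compared with 10983 others by Pearson correlation of log2(CPM + 10). These groups share libraries and depth, so the values are a description. *Zic2* and *Zic5* were each other's closest match (r = 0.957). *Gja1* was closest to *A730049H05Rik* (0.929), *Adamts9* (0.919) and the pigment cell channel gene *Trpm1* (0.903). *Col9a1* and *Wfdc1* shared *Rhoj* as their closest gene (0.915 and 0.940). *Otx1* was closest to *Foxp2* (0.878) and then to *Zic1* (0.871), *Msx1* to *Fgfr2* (0.879) and *Zic1* to *Ppic* (0.924).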

How the data were processed

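Reads were aligned by the authors to mm10 using Cell Ranger 3.1.0, per the submitters' processing notes. The authors deposited UMI counts per gene and cell, not normalized, for 1 control and 1 DKO library. As in the study, a cell was kept if it had over 200 but under 6000 genes and a mitochondrial share below 20%. Cells were integrated with Seurat 5.3.0 anchors using 20 dimensions of 1981 variable genes. Clustering at resolution 1 left out the 9 genes, *Six3*, *Six6*, hemoglobin and sex-linked genes. A cluster was named where 75% of a class's markers, at least 3 detected, lay above 1.5 times their level in the other cells. The rule was chosen once clusters had been inspected, and names are rebuilt. Scrublet (scanpy 1.11.5) called 310 control and 377 DKO doublets at a threshold of 0.2097, which were kept. Intervals are exact Poisson for levels, exact binomial for shares and from the binomial split of UMIs for ratios. A floor of 3 UMIs stood for a count of 0, and ratios over all genes needed 100 UMIs. Code was tested on simulated data. The genes and lists were chosen with earlier results of these data known. Named genes were the 9 members, *Six3*, *Six6*, the 3 closest in pattern to each member and the largest differences of each list. *Col9a2*, *Zic4*, *Pmel*, *Tyr*, *Fgfr2*, *Dct*, *Slc45a2*, *Fzd1*, *Ezr*, *Rdh10*, *Bmp4*, *Cdon*, *Rax*, *Sfrp2*, *Ccnd1* and the cluster leaders beyond this rule were chosen after their values were seen. The study's bulk RNA-seq and chromatin data were not used here. Some results on relatives and on likeness of pattern are not reported here.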

Additional observations from a re-analysis of the deposited data

Results flagged for a closer look

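Some genes had log2 ratios (DKO over control) of opposite sign in different classes, with counting intervals that left out 0 in both. With 1 library per genotype, the difference between classes was not tested. *Col9a1* was at -1.03 in naive-like and 0.15 in margin-like cells, and in the margin-like cluster led by *Crhbp* alone it was -0.19. *Zic2* was at -0.35 in naive-like, 0.18 in margin-like and 1.90 in pigmented-like cells. *Zic5* was at -0.27 in naive-like, 0.37 in margin-like and 2.36 in pigmented-like cells. With Six3-low DKO cells alone, the naive-like log2 ratios were 0.04 for *Zic2* and 0.05 for *Zic5*, and both intervals held 0. At clustering resolution 0.5 the naive-like log2 ratio of *Zic5* was 0.14.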

How the results depend on the processing

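No paired analysis was possible because only 1 library per genotype was made. Of the 270 alternative values of a single gene's ratio, 206 stayed within the counting interval of the reported value and 64 moved out of it, and no ratio past 2-fold changed sign. *Gja1* in margin-like cells stayed past 2-fold in 11 of 11 alternatives, from 1.07 to 1.91, and *Rbms1* in 8 of 11, from 0.40 without integration to 1.38. The median log2 ratio of the 9 genes in naive-like cells moved from 0.05 to 0.39 at resolution 0.5, to -0.067 without integration, to 0.30 with Six3-low DKO cells alone and to -0.21 with the other DKO cells. In margin-like cells it moved from 0.37 to 0.12 with Six3-low DKO cells alone and to 0.58 in the cluster led by *Aldh1a3* alone. The cause was not tested. The split of the margin-like class and the use of DKO cells outside Six3-low subclusters were added after the data were seen. Resolution 0.5 gave no margin-like class, and merging without integration gave no pigmented-like class with 50 control cells. Genes called higher and lower numbered 125 and 83 in naive-like, 169 and 40 in margin-like and 208 and 184 in pigmented-like cells. With 30 UMIs they were 242 and 193, 333 and 125, and 473 and 570. At 1.5-fold they were 359 and 326, 488 and 187, and 597 and 515. Shares of cells moved with depth: without thinning 53 of 54 left their interval. By Spearman correlation 10 of the 27 closest genes stayed among the first 3. The 65 control pigmented-like cells limit every pigmented comparison.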

Other observations

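Outside the retina, lens-like cells (214 control and 257 DKO cells) also held transcripts of some of the genes. *Gja1*, which encodes a connexin of the lens epithelium, was at 34.5 CPM in control and 76.9 CPM in DKO lens-like cells, with a log2 ratio of 1.16 (0.85 to 1.47). *Col9a1* was at 31.3 and 69.5 CPM, with a log2 ratio of 1.15 (0.83 to 1.47). *Msx1* was at 8.99 and 17.1 CPM, on 37 and 55 UMIs, and *Zic1* at 12.4 and 5.92 CPM, on 51 and 19 UMIs. In macrophage-like cells (55 control and 162 DKO cells) *Rbms1* was at 99.5 and 132 CPM, and the interval of its log2 ratio of 0.41 (-0.19 to 1.06) held 0.

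Where the UMIs of a gene lay also differed between the libraries. Margin-like cells gave 58.7% of the *Gja1* UMIs of the control library and 33.5% of those of the DKO library, while pigmented-like cells gave 17.5% and 37.8%. For *Wfdc1*, margin-like cells gave 55.6% and 55.5%. In the *Fabp7*-led clusters of the DKO, with 8.14% of its cells, lay 18.0% of its *Zic1* UMIs and 2.59% of its *Gja1* UMIs.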
